A study of Mus musculus with 8 samples.

Results

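The genes described here encode the proteins of the cytosolic ribosome. Members were the protein-coding genes of the RNA-seq table whose symbol follows the ribosomal protein nomenclature (Rpl or Rps with a number, Rplp0, Rplp1, Rplp2 and Rpsa), which gave 84 of 32567 genes, 51 of the large and 33 of the small subunit. They were measured in mouse embryonic stem cells (ESC) and after their differentiation by retinoic acid (RA-DIFF), each from a wild-type (WT) line and from a huntingtin-null (Htt-null) line homozygous for the Hdh ex4/5 null allele. ESC were grown with leukemia inhibitory factor on irradiated fibroblast feeders or on gelatin. For RA-DIFF, cells were kept without feeders for 4 passages, then grown as embryoid bodies for 8 days with 5 µM retinoic acid from day 4, and RNA was taken 2 h after plating on poly-ornithine and laminin. Each of the 4 conditions is represented by 1 library of poly-A RNA from 1 line, so no difference has a replicate check and no p-value is given. The number of clones behind each line is not given in the sources used here.

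A ribosome holds a single copy of most of these proteins, bound to ribosomal RNA in a small subunit that decodes the message and a large subunit that forms peptide bonds. Because the parts are needed in fixed proportion, their mRNAs are abundant and usually move together. Most begin with an unbroken stretch of pyrimidines, the TOP sequence, through which mTOR and Larp1 adjust their translation, and most left behind many processed pseudogenes, intronless copies scattered over the genome. A few genes have a second, diverged copy with restricted use, such as Rpl10l and Rpl39l, which are best known from the male germ line.

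The libraries held between 63617410 and 110569127 counts. Levels are CPM, counts relative to the total of the library after scaling by TMM factors, and ratios are log2 differences between libraries. A gene was called higher or lower when the ratio was past 0.75 and its average log2 CPM above 0, a limit that 15492 genes and all 84 members passed. The targeted gene is only a partial check of the labels. Htt was at 166 CPM in WT and 111 CPM in Htt-null ESC, a log2 ratio of -0.58 that is within the limit. It was thus still counted in the null line, with 7260 counts. In RA-DIFF it was at 73.3 CPM in the library labelled WT and 98.7 CPM in the one labelled Htt-null, against its label. Its level cannot settle the genotype of a library at either stage. The RA-DIFF libraries are therefore named by their labels throughout. Values with these labels exchanged are given beside most of the main RA-DIFF counts, medians and differences between the lines. They are given first for WT and then for Htt-null cells. Defining markers set the stages apart, the summed level of 7 pluripotency genes being 5021 and 4298 CPM in WT and Htt-null ESC and 54.2 and 13.2 CPM in RA-DIFF labelled WT and Htt-null. The RA-DIFF libraries also differed in cell type markers. The 6 neuron genes summed to 2555 CPM in the library labelled WT and 1153 CPM in the one labelled Htt-null, 8 fibroblast genes to 568 and 2196 CPM, 4 neural progenitor genes to 2004 and 2182 CPM and 4 endothelial genes to 22.5 and 77 CPM. Single markers departed from these sums: Pax6 (-0.79) and Sox1 (-0.89) of the progenitor list were called lower under the Htt-null label, and the endothelial sum followed Kdr (17.9 and 71.7 CPM) while Pecam1 was called lower (-1.35). In ESC, the same lists summed to 282 and 314 CPM (neuron), 38.9 and 26.1 CPM (fibroblast), 23.8 and 38.4 CPM (progenitor) and 209 and 233 CPM (endothelial) in WT and Htt-null cells. Single genes made up most of 2 of these sums, Stmn2 (214 and 209 CPM) of the neuron and Pecam1 (180.1 and 212 CPM) of the endothelial sum. Dcn was at 0 in Htt-null ESC and Lum in WT ESC, 2 of the 8 fibroblast genes.

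The annotated transcription starts were searched for pyrimidine runs of the TOP kind. RefSeq promoter sequences on GRCm38.p6 were found for 63 of the 84 members. A run of at least 8 bases that are C or T on the gene's strand lay within 15 bases of an annotated start in 27 of the 63 (42.9%) and in 13.9% of all 27025 genes in the same table. The motif CCGGAAG, searched on both strands of the 300 bases around the start, was present in 26 of the 63 (41.3%) against 9.93% of all genes, and TATAAA, searched likewise, in 7 (11.1%) against 15.7%. Of the 57 other members with an entry 25 held such a run (43.9%), and of the 6 diverged copies 2 (33.3%). Most of both kinds thus lacked one, and any relation of runs to levels was not tested. The windows of 15 bases before and 15 bases after the start are shown for 6 members with a run and for 3 diverged copies without one, with the run in capitals, because the levels of these copies are set apart below.
Rpl7a: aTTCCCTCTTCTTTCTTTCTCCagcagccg
Rpl15: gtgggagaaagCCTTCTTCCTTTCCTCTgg
Rpl28: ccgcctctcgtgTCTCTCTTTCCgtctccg
Rpl38: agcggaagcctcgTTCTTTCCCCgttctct
Rps6: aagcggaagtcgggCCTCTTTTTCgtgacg
Rps18: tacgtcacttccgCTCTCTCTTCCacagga
Rpl39l: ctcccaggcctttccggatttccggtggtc
Rpl10l: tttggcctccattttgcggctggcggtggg
Rpl3l: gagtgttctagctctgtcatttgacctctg
The windows lie at chr2:26910792-26910821 (+) for Rpl7a, chr14:18270972-18271001 (-) for Rpl15, chr7:4792950-4792979 (+) for Rpl28, chr11:114668565-114668594 (+) for Rpl38, chr4:86857353-86857382 (-) for Rps6, chr17:33955651-33955680 (-) for Rps18, chr16:10170213-10170242 (+) for Rpl39l, chr12:66284387-66284416 (-) for Rpl10l and chr17:24727811-24727840 (+) for Rpl3l. Each covers the promoter's last bases and the start of the first exon.

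Ribosomal protein mRNAs took 3.43% of all counts in WT ESC (Wilson 95% interval 3.429% to 3.437%) and 3.72% in Htt-null ESC (3.715% to 3.724%). In RA-DIFF they took 2.29% in the library labelled WT (2.288% to 2.294%) and 1.93% in the one labelled Htt-null (1.93% to 1.936%). Both RA-DIFF shares were thus lower than both ESC shares, 0.667 times the ESC share in the line labelled WT and 0.52 times in the line labelled Htt-null. With the RA-DIFF labels exchanged these ratios are 0.563 and 0.616, so the order of the lines turns. These intervals cover counting error only. In bulk RNA, fewer cells of a type and less of an mRNA per cell cannot be told apart. Small subunit genes took 48.1% of the members' counts in WT ESC, 45.3% in Htt-null ESC, 44.4% in RA-DIFF labelled WT and 43.9% in RA-DIFF labelled Htt-null. The 5 most abundant members of each library took between 19.2% and 25.3% of the members' counts.

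**Figure D1:**
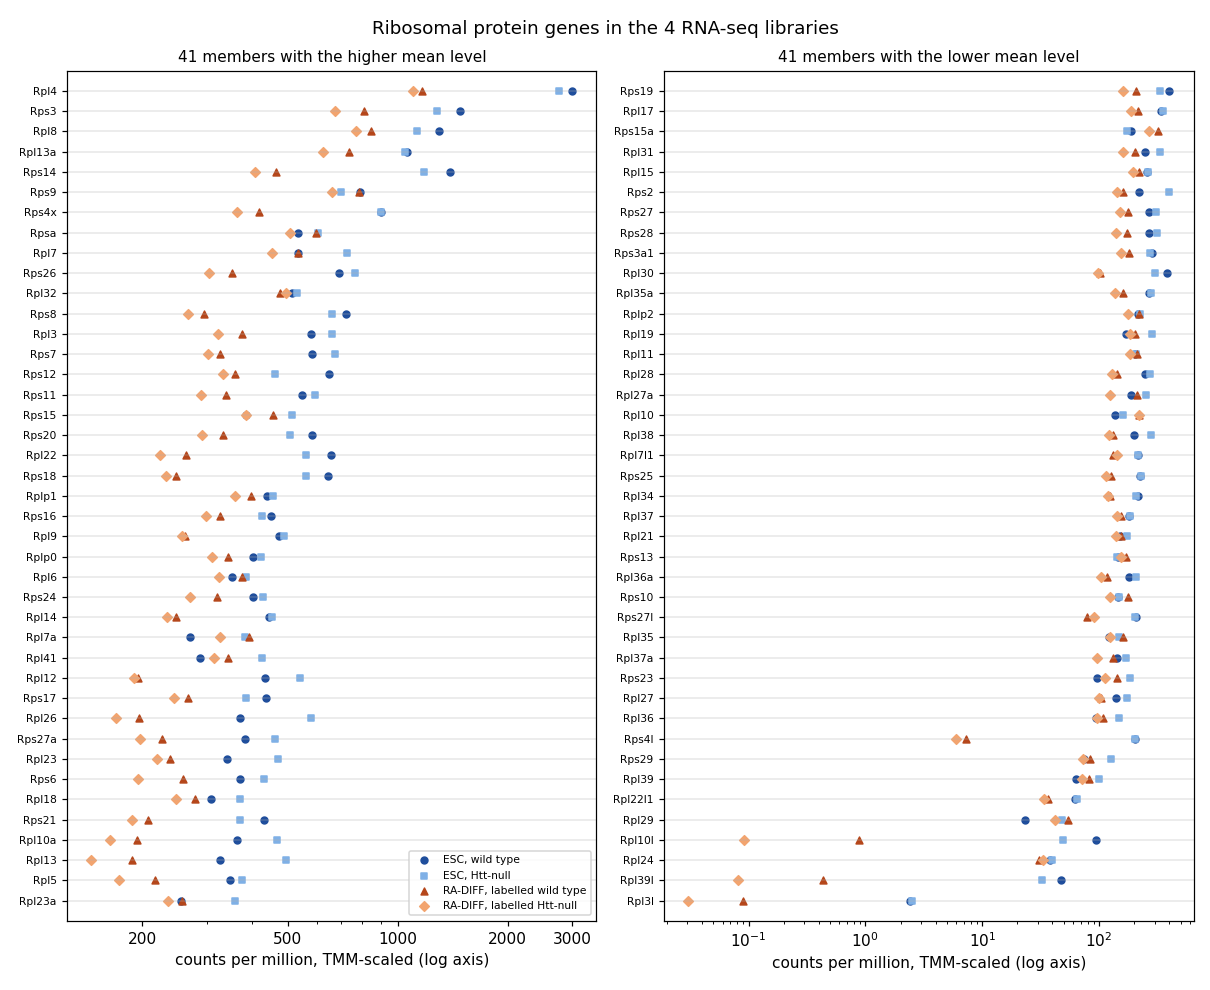
Level of 82 ribosomal protein genes in the 4 libraries, in TMM-scaled CPM on a log axis, with the 41 more abundant members on the left and the 41 less abundant on the right; the left and right axes differ in range. Rpl4 and Rps14 were lower in both RA-DIFF libraries than in both ESC libraries, and Rpl10l, Rpl39l, Rpl3l and Rps4l fell furthest.

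Levels per length were far from equal. Over the 68 members with at least 300 coding bases and outside the diverged copies, the mean over the 4 libraries ran from 74.9 to 1904 CPM per kilobase of coding sequence, a 25.4-fold range with a median of 618. Among the highest were Rps14 (1904), Rpl4 (1602), Rps26 (1529) and Rps3 (1459 CPM per kilobase). The lowest 5 of all 72 members of that length were Rpl3l (1.04), Rpl10l (56.4), Rpl24 (74.9), Rpl29 (87.1) and Rpl22l1 (135 CPM per kilobase), of which Rpl24 and Rpl29 are ordinary large subunit proteins. The read counter discards reads that map to several places, so sequence shared with other loci was measured for the 83 members with a coding transcript. Of the 50-base windows of a member's coding sequence, the median share found exactly elsewhere in the genome was 90.3%, at a median of 9 other loci. This share was 100% for 29 members, among them Rpl24, and above 50% for 69. It was 8.09% for Rps3, 8.86% for Rpl8 and 20.3% for Rpl4, and 90.3% for Rpl29, which matched 90 other loci. Across the 77 members outside the diverged copies, the share and the average level were related with a Spearman correlation of -0.49, a description over genes that share their libraries. Whether discarded reads set these levels was not tested.

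With RA-differentiation, most ribosomal protein mRNAs were lower. In the line labelled WT, 61 of 84 members were below their ESC level and 31 were called lower, 36.9% of members against 26.1% of all genes tested, and 1 was called higher against 33.9% of all genes. The median log2 ratio was -0.62, beside 0.12 over all genes tested. In the line labelled Htt-null, 81 of 84 were below their ESC level and 49 were called lower, 58.3% against a background of 24.8%, and 0 were called higher against 34.3%. Here the median was -0.92, beside 0.17. Under the study's own criterion, which also asks for the edgeR exact test at a preset dispersion of 0.1, 11 and 17 members were called lower, 13.1% and 20.2% against 17.3% and 15.9% of all genes tested, so the count in the line labelled WT was then under the background. At a limit of 1 on the log2 scale, 15 and 35 members were called lower, 17.9% and 41.7% against 21.8% and 20.2% of all genes tested. With the RA-DIFF labels exchanged the medians were -0.77 and -0.70, and 73 and 75 members were below their ESC level. Then 44 and 37 members were called lower (52.4% and 44.0% against 25.2% and 25.5% of all genes tested), so that more members were called lower in WT than in Htt-null cells. Of the 31 and 49 members called lower, 30 were shared, 96.8% of the former and 61.2% of the latter, and with exchanged labels 34 were shared, 77.3% of the 44 and 91.9% of the 37. The comparisons of the 2 lines share no library, and over the 77 members outside the diverged copies their ratios had a Spearman correlation of 0.78 (0.84 with exchanged labels), given as a description over genes.

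Rpl4, a large subunit protein that lines the peptide exit tunnel, had 3011 and 2773 CPM in WT and Htt-null ESC and 1167 and 1103 CPM in RA-DIFF labelled WT and Htt-null. Rpl22 had 657 and 561 CPM in ESC and 264 and 224 CPM in RA-DIFF. Rps3, a small subunit protein at the mRNA entry channel, had 1485 and 1285 CPM in ESC and 810.2 and 674 CPM in RA-DIFF. For these 3 genes the RA-DIFF levels did not overlap the ESC levels, and the log2 ratios of the 2 lines were nearly equal, at -1.37 and -1.33 for Rpl4, -1.32 and -1.32 for Rpl22 and -0.87 and -0.93 for Rps3. With the RA-DIFF labels exchanged they are further apart, at -1.45 and -1.25 for Rpl4, -1.55 and -1.09 for Rpl22 and -1.14 and -0.67 for Rps3. Rpl30 had the lowest ratio among ordinary members in the line labelled WT, with 384 and 303 CPM in ESC and 102 and 98.5 CPM in RA-DIFF, log2 ratios of -1.91 and -1.62. Rpl26 and Rpl13 had the lowest in the line labelled Htt-null, at -1.78 and -1.77, against -0.92 and -0.79 in the other line. With exchanged labels they are -1.13 and -1.57 for Rpl26 and -1.17 and -1.39 for Rpl13.

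Rps15a, a small subunit protein, went the other way in both lines, with 189 and 173 CPM in ESC and 317 and 268 CPM in RA-DIFF, log2 ratios of 0.74 and 0.63 that stayed within the limit for a call (0.50 and 0.87 with exchanged labels, the latter past it). Rpl10, a late-joining large subunit protein, had 138 and 159 CPM in ESC and 221 and 220.5 CPM in RA-DIFF. Its ratios were 0.68 and 0.47 (0.67 and 0.48 with exchanged labels). Rps13 was the other member above its ESC level in both lines (0.24 and 0.13, or 0.10 and 0.27 with exchanged labels). With exchanged labels 6 members were above their ESC level in both lines. Rpl29, which matched 90 other loci, was the only member called higher, with a ratio of 1.21 in the line labelled WT and -0.20 in the line labelled Htt-null (0.84 and 0.17 with exchanged labels). Its levels were 23.4 CPM in WT ESC, 48.2 CPM in Htt-null ESC and 54.0 and 41.8 CPM in RA-DIFF labelled WT and Htt-null, so WT ESC was the lowest of the 4 libraries. WT ESC was also the lowest for Rps23, with 96.1 CPM in WT ESC, 185 CPM in Htt-null ESC and 142 and 112 CPM in RA-DIFF. The 4 stalk and platform genes Rplp0, Rplp1, Rplp2 and Rpsa were not called, with ratios from -0.23 to 0.16 in the line labelled WT and from -0.45 to -0.25 in the line labelled Htt-null.

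**Figure D2:**
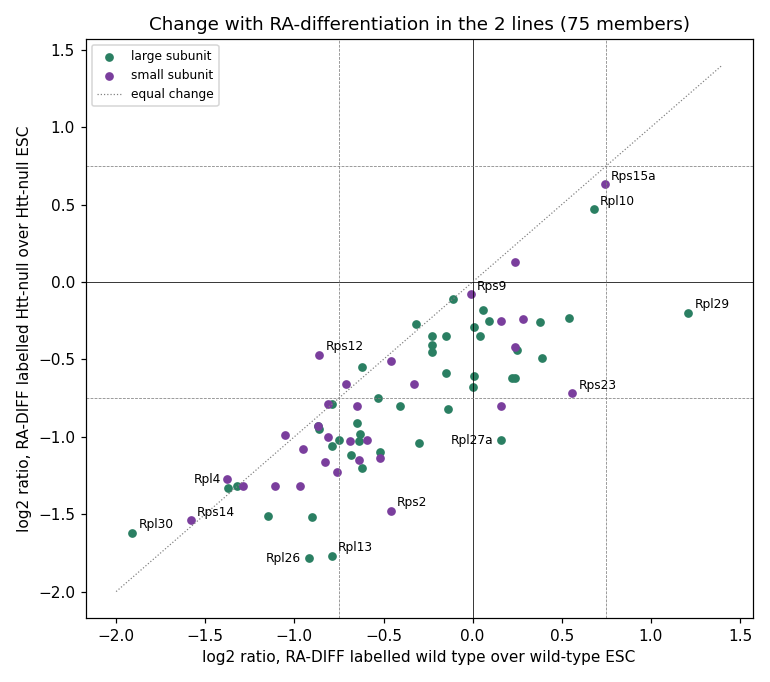
Log2 ratio of RA-DIFF over ESC for 75 members in the line labelled wild type (horizontal) and the line labelled Htt-null (vertical), with dashed lines at the limit of 0.75 and a dotted line of equal change. Rpl4 lies close to the dotted line, and Rpl29 and Rps23 lie furthest below it.

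Under the labels as given, the lines differed less for members with little shared sequence. For the 9 ordinary members with at most 50% of windows elsewhere (among them Rpl22, Rpl4, Rpl8, Rps3 and Rps15), the median absolute difference between the lines' log2 ratios was 0.06, with a range of -0.07 to 0.66. For the 68 with a larger share it was 0.36, with a range of -0.39 to 1.41. Rps15 had the largest difference among the 9, with ratios of 0.24 and -0.42. The median ratios of the 9 were -0.87 and -0.93, and those of the 68 were -0.46 and -0.80. With the RA-DIFF labels exchanged the order turns, the median absolute difference being 0.34 for the 9 and 0.20 for the 68, so this pattern depends on the labels.

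Of the 7 diverged copies, 4 fell further with RA-differentiation than any ordinary member. Rpl10l, an intronless copy of Rpl10 at chr12:66283379-66284401 (GRCm38) that can stand in for it in the male germ line, had 94.6 CPM in WT and 49.3 CPM in Htt-null ESC and 0.875 and 0.0914 CPM in RA-DIFF labelled WT and Htt-null. Its counts were 8200, 3216, 98 and 9. The RA-DIFF level was 108-fold lower in the line labelled WT (exact 95% counting interval 88.6 to 133) and 539-fold lower in the line labelled Htt-null (284 to 1181). With exchanged labels it is 1035-fold lower in WT (545 to 2263) and 56.4-fold lower in Htt-null cells (46.1 to 69.6). Rpl39l, at chr16:10170226-10174911, had 47.4 and 32.7 CPM in ESC and 0.437 and 0.0812 CPM in RA-DIFF, from 4110, 2136, 49 and 8 counts. It was 108-fold (81.8 to 147) and 403-fold (204 to 935) lower, or with exchanged labels 583-fold (296 to 1352) and 74.9-fold (56.4 to 102) lower. In both genes the ESC and RA-DIFF levels were separated by a wide gap, and Htt-null ESC lay below WT ESC.

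Rpl39l is the clearest case for reading the copies apart, because the short coding sequences of the pair can be set side by side. Rpl39 and Rpl39l each have 153 coding bases without the stop codon and differ at 23, an identity of 85.0%, and no 50-base window of Rpl39l occurs elsewhere in the genome. The coding sequences follow, with the differing bases in capitals.
Rpl39: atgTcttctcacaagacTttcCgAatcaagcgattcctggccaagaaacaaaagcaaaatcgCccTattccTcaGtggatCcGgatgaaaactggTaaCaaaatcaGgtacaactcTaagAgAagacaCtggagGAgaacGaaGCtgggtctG
Rpl39l: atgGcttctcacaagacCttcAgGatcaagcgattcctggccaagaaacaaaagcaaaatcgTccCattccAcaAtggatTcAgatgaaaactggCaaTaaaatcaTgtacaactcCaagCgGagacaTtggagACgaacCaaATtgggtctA
Both sequences were read from GENCODE vM21 transcripts on GRCm38. Rpl39 itself had 63.0 and 99.8 CPM in ESC and 82.4 and 71.0 CPM in RA-DIFF, so the pair moved from 42.9% Rpl39l in WT ESC (41.93% to 43.91%) and 24.7% in Htt-null ESC (23.8% to 25.62%) to 0.528% and 0.114% in RA-DIFF labelled WT and Htt-null. Rpl10l likewise made up 40.6% and 23.7% of its pair in WT and Htt-null ESC and 0.394% and 0.0414% in RA-DIFF. The partners share far more sequence with other loci than the copies do, with 88.5% of the windows of Rpl39 and 100% of those of Rpl10 found elsewhere, so more reads of the partners can be discarded and the shares cannot be read as the proportions of the copies. The coding sequences of Rpl10l and Rpl10 were 84.7% identical over 642 bases, and 12.5% of the windows of Rpl10l occurred elsewhere.

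Rps4l, an intronless copy of the X-linked Rps4x at chr6:148354656-148355598, had 205 and 204 CPM in WT and Htt-null ESC and 7.25 and 5.99 CPM in RA-DIFF. The RA-DIFF level was 28.3-fold (26.4 to 30.4) and 34.0-fold (31.3 to 37.0) lower (34.2-fold and 28.1-fold with exchanged labels), and the copy's share of the pair went from 18.5% and 18.4% to 1.71% and 1.62%. Rps4l is protein-coding in the deposited table and a transcribed processed pseudogene in GENCODE vM21. Rpl3l, the striated muscle copy of Rpl3, was low throughout at 2.42 and 2.51 CPM in ESC and 0.0892 and 0.0305 CPM in RA-DIFF, the last from 3 counts. Its ratio of RA-DIFF over ESC was 0.0369 (0.0174 to 0.0691) in the line labelled WT and 0.0121 (0.00247 to 0.036) in the line labelled Htt-null.

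The other 3 copies changed no more than ordinary members. Rps27l, a p53-responsive copy of Rps27, had 207 and 203 CPM in ESC and 78.3 and 91.5 CPM in RA-DIFF, with log2 ratios of -1.40 and -1.15. Rpl7l1 had 216 and 216 CPM in ESC and 131 and 143 CPM in RA-DIFF (-0.72 and -0.60), and Rpl22l1 had 61.9 and 64.6 CPM in ESC and 36.6 and 34.1 CPM in RA-DIFF (-0.76 and -0.92). Rpl22l1 was the copy whose share of its pair was larger in both RA-DIFF libraries than in both ESC libraries, 12.2% and 13.2% against 8.61% and 10.3%.

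**Figure D3:**
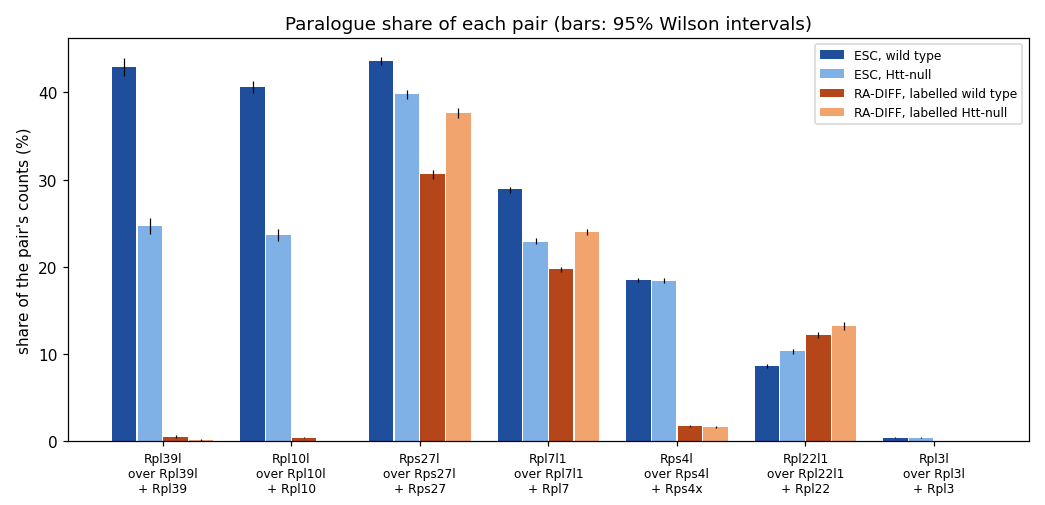
Share of each diverged copy in the summed counts of the copy and its ordinary partner, in percent, for the 4 libraries; error bars are 95% Wilson intervals of the counts, which cover counting error and not the reads discarded for shared sequence. Rpl39l and Rpl10l went from over 20% in ESC to under 1% in RA-DIFF, Rps4l to under 2%, and Rpl22l1 was the only copy with larger shares in both RA-DIFF than in both ESC libraries.

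In ESC, few members differed between the Htt genotypes. In all, 4 members were called higher in Htt-null ESC, 4.76% of 84 against 5.14% of all genes tested, and 1 was called lower, 1.19% against 3.47%, so both shares were under the background. Under the study's criterion with the exact test at dispersion 0.1, 0 members were called in either direction. The median log2 ratio was 0.07, beside -0.04 over all genes tested, with 59 members above and 25 below 0. The median was 0.14 for the large and -0.01 for the small subunit. The members called higher were Rpl29 (1.04), Rps23 (0.94), Rps2 (0.86) and Rps29 (0.75), 3 of them small subunit proteins. Rps2 had 222 CPM in WT and 401 CPM in Htt-null ESC, and Rps29 had 74.6 and 126 CPM. The member called lower was Rpl10l, with 94.6 and 49.3 CPM (-0.94), followed by Rpl39l (-0.53), Rps12 (651 and 461 CPM, -0.50) and Rpl30 (384 and 303 CPM, -0.34). At these depths the counting error of a ratio was small, with a median standard error of 0.013, but counting error is not the spread between cultures.

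The direction went with the sequence that members share with other loci. The 9 ordinary members with at most 50% of windows elsewhere had a median ratio of -0.18, with 8 of 9 below 0, and the 29 with every window elsewhere had a median of 0.21, with 25 of 29 above 0. Over 83 members, the share of windows elsewhere and the ratio had a Spearman correlation of 0.48, as a description over genes. Over the 77 members outside the diverged copies it was 0.42. For these 77 the average level and the ratio had a correlation of -0.40, and level and share were themselves related (-0.49). The part of discarded or shared reads in this pattern was not tested.

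The 9 members on chromosomes 8 and 11 all had ratios above 0 in ESC. Rpl13, 1 of 2 members on chromosome 8, had 326 CPM in WT and 495 CPM in Htt-null ESC, a log2 ratio of 0.60. The 7 members on chromosome 11 had ratios of 0.72 (Rpl19), 0.65 (Rpl26), 0.49 (Rpl23a), 0.46 (Rpl38), 0.46 (Rpl23), 0.32 (Rpl27) and 0.28 (Rps27a), with a median of 0.46. Of the 75 members on other chromosomes, 14 (18.7%) were above the lowest of these 9, and their median was 0.05. All genes tested on these chromosomes were shifted the same way, with medians of 0.36 on chromosome 8, 0.22 on chromosome 11 and -0.07 elsewhere. All 9 members also had at least 86.5% of their windows elsewhere, so chromosome and shared sequence went together in these members and cannot be told apart here. In RA-DIFF labelled Htt-null over labelled WT, the members on chromosome 11 had a median of -0.13, beside -0.20 for members on other chromosomes, and Rpl13 had a ratio of -0.38. All genes tested had medians of -0.22 on chromosome 8, 0.01 on chromosome 11 and 0.00 elsewhere. Exchanging the RA-DIFF labels turns the signs of the members' values.

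**Figure D4:**
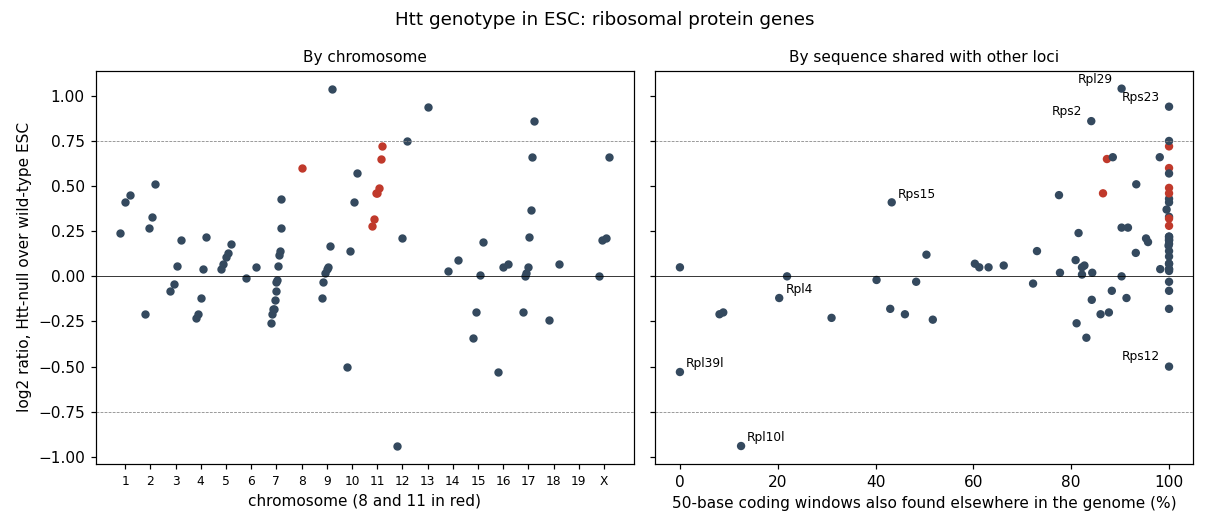
Members' log2 ratios between Htt-null and wild-type ESC (above 0 is higher in Htt-null), by chromosome (left, chromosomes 8 and 11 in red) and by the percentage of 50-base coding windows found elsewhere in the genome (right, 81 members), with dashed lines at the limit of 0.75. The 8 red points lie between 0.28 and 0.72, and Rpl4, toward the left of the right panel, lies just under 0.

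In RA-DIFF, nearly all members were slightly lower under the Htt-null label than under the WT label. Among 84 members, 80 had a ratio below 0, with a median log2 ratio of -0.20 beside -0.01 over all genes tested. In all, 3 members were called lower, 3.57% against 8.99% of all genes tested, and 0 higher against 11.7%. The 77 ordinary members had a standard deviation of 0.13 around their median, against 0.32 in the ESC comparison, and their shares of the members' counts changed by less than 0.5 on the log2 scale for 76 of the 77. With the labels exchanged the median is 0.20 and the 80 members are higher. The neuron and fibroblast marker sums given above differ between the same 2 libraries, and their part in these differences was not tested.

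The 3 members called lower were diverged copies under 1 CPM in both RA-DIFF libraries, which passed the expression limit only through their ESC levels. Rpl10l had 98 counts in the library labelled WT and 9 in the one labelled Htt-null, a ratio of 0.105 (exact 95% counting interval 0.0464 to 0.207), and Rpl39l had 49 and 8 counts, a ratio of 0.186 (0.076 to 0.396). Rpl3l had 10 and 3 counts, a ratio of 0.341 (0.0604 to 1.33) that counting error alone spans. Of the 7 pluripotency genes, 6 were called lower in the same comparison (85.7%, against 8.99% of all genes tested), and Klf4 was at 5.13 and 6.44 CPM. Exchanging the RA-DIFF labels turns these signs, and any relation to the diverged copies was not tested. Among ordinary members, Rpl27a (209.8 and 125 CPM, -0.75, just within the limit), Rps10 (177 and 125 CPM, -0.50) and Rpl37a (131 and 96.8 CPM, -0.44) were among the lowest. The 4 members above 0 were Rps27l (0.22), Rpl7l1 (0.12), Rpl24 (0.12) and Rpl32 (0.06).

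Several members are known for the effects of their loss. Of 14 members mutated in Diamond-Blackfan anaemia, a failure of red cell production, 4 were called lower with RA in the line labelled WT and 9 in the line labelled Htt-null, 28.6% and 64.3% against 26.1% and 24.8% of all genes tested, with medians of -0.66 and -1.02, beside -0.62 and -0.92 over all members. With exchanged labels 9 and 7 were called lower, 64.3% and 50.0% against 25.2% and 25.5% of all genes. Rps19, the gene most often mutated, had 401 and 336 CPM in WT and Htt-null ESC and 208 and 159 CPM in RA-DIFF, log2 ratios of -0.95 and -1.08. Rps29 was the 1 member of the list called higher in Htt-null ESC, 7.14% of the 14 against 5.14% of all genes tested. Of 6 members with mouse mutants of patterning or pigment, 3 and 4 were called lower with RA (50.0% and 66.7%, against 26.1% and 24.8% of all genes), and 3 and 2 with exchanged labels (50.0% and 33.3%, against 25.2% and 25.5%). Rpl38, mutated in Tail-short mice, had 201 and 277 CPM in ESC and 131 and 121 CPM in RA-DIFF (-0.62 and -1.20), and Rpl24, mutated in Belly spot and tail mice, had 37.9, 39.9, 30.4 and 33.0 CPM, its log2 ratios of -0.32 and -0.27 being within the limit.

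Some ribosomal proteins carry symbols that the rule leaves out. Gnb2l1, the older symbol of Rack1, had 1939 and 2079.9 CPM in ESC and 1232 and 1086 CPM in RA-DIFF (-0.65 and -0.94). Fau, the precursor of eS30, had 231 and 163 CPM in ESC and 127 and 97.7 CPM in RA-DIFF. Rpl36al was level at 36.0, 42.8, 35.0 and 37.2 CPM.

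The machinery that builds and regulates ribosomes was set beside the members. Of 39 ribosome biogenesis genes, 29 and 30 were called lower with RA in the lines labelled WT and Htt-null, 74.4% and 76.9% against 26.1% and 24.8% of all genes tested, with medians of -1.15 and -1.13. With exchanged labels 29 and 28 were called lower, 74.4% and 71.8% against 25.2% and 25.5%. Between genotypes 0 were called in either direction, against 5.14% of all genes higher and 3.47% lower in ESC and 11.7% and 8.99% in RA-DIFF. Utp20, of the small subunit processome, and Npm3 had the lowest ratios in the line labelled WT (-1.91 and -1.76), and Dkc1, the pseudouridine synthase, and Polr1c, a subunit of RNA polymerases I and III, in the line labelled Htt-null (-1.73 and -1.69). Of 15 other TOP mRNAs, 4 and 5 were called lower (26.7% and 33.3%), near the 26.1% and 24.8% of all genes, with medians of 0.05 and -0.26. In both lines 0 were called higher, against 33.9% and 34.3% of all genes. With exchanged labels 5 and 2 were called lower (33.3% and 13.3%, against 25.2% and 25.5%) and 0 higher. Pabpc1, the poly-A binding protein, had 1775 and 1536 CPM in ESC and 652 and 589 CPM in RA-DIFF, while Eef1a1, elongation factor 1A, had 3434, 4294, 3673 and 3013 CPM. Of 76 mitochondrial ribosomal protein genes tested, 17 and 21 were called lower with RA (22.4% and 27.6%), near the same 26.1% and 24.8%, and 6 and 3 higher (7.89% and 3.95% against 33.9% and 34.3%), with medians of -0.35 and -0.41. Among 14 regulators, Eif4ebp1, an mTOR-controlled inhibitor of cap-dependent translation, had the lowest ratios (212 and 283 CPM in ESC, 31.8 and 40.8 CPM in RA-DIFF), and the Myc family split, Mycn being lower (144 and 143 against 72.7 and 36.2 CPM) and Mycl (27.3 and 25.1 against 166 and 70.2 CPM) and Myc (12.4 and 9.46 against 46.2 and 46.2 CPM) higher. Larp1, the binder of TOP sequences, had log2 ratios of -0.49 and -0.79. The 3 chaperones of single ribosomal proteins, Grwd1, Tsr2 and Heatr3, were not called in any of the 4 comparisons.

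Named pseudogenes of the members were higher in RA-DIFF as a sum, unlike the members. The table holds 211 genes named as ribosomal protein pseudogenes. The summed level of all 211 was 248 CPM in WT ESC, 249 CPM in Htt-null ESC and 449 and 353 CPM in RA-DIFF labelled WT and Htt-null. The log2 ratios were 0.86 and 0.51 (0.51 and 0.85 with exchanged labels), while the summed level of the members had ratios of -0.62 and -0.87. Of the 211, 45 passed the expression limit, 7 of them with a protein-coding biotype. With RA, 33 of the 45 were called higher and 5 lower in the line labelled WT, and 25 higher and 3 lower in the line labelled Htt-null. The shares called higher were 73.3% and 55.6%, against 33.9% and 34.3% of all genes tested, and those called lower were 11.1% and 6.67%, against 26.1% and 24.8%. With exchanged labels 26 and 28 were called higher (57.8% and 62.2%, against 34.4% and 33.6% of all genes tested). The limit favours genes that are high in RA-DIFF, since 10 of the 45 averaged at most 1 CPM in ESC. Another limit, a mean above 1 CPM in the ESC libraries, was chosen after seeing the data and favours genes high in ESC. Of all 211, 36 passed it, of which 24 and 17 were called higher (66.7% and 47.2%, against 26.4% and 27.0% of all genes so chosen) and 6 and 4 lower (16.7% and 11.1%, against 31% and 29.8%). For 38 members the pseudogenes summed to at least 1 CPM in some library. In 20 of these 38 the pseudogenes were above and the parent below its ESC level in both lines, and in 31 the pseudogenes had the higher ratio in both lines (22 and 32 with exchanged labels). The single pseudogene of Rps25, Rps25-ps1, had 145 and 78 counts in WT and Htt-null ESC and 1247 and 782 counts in RA-DIFF, ratios of 2.72 and 2.71, while Rps25 had -0.81 and -1.0. Rps24-ps3 had 192, 159, 1751 and 1152 counts, ratios of 2.81 and 2.25, while Rps24 had -0.33 and -0.66. Rps13 was the reverse, its pseudogenes summing to 33.5 and 32.5 CPM in ESC and 12 and 12.7 CPM in RA-DIFF. Gene and pseudogene share sequence, so reads may have been divided between them by the mapping, and counts of either are uncertain to that extent. The pseudogenes named here beyond those sums were chosen after their values were seen.

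**Figure D5:**
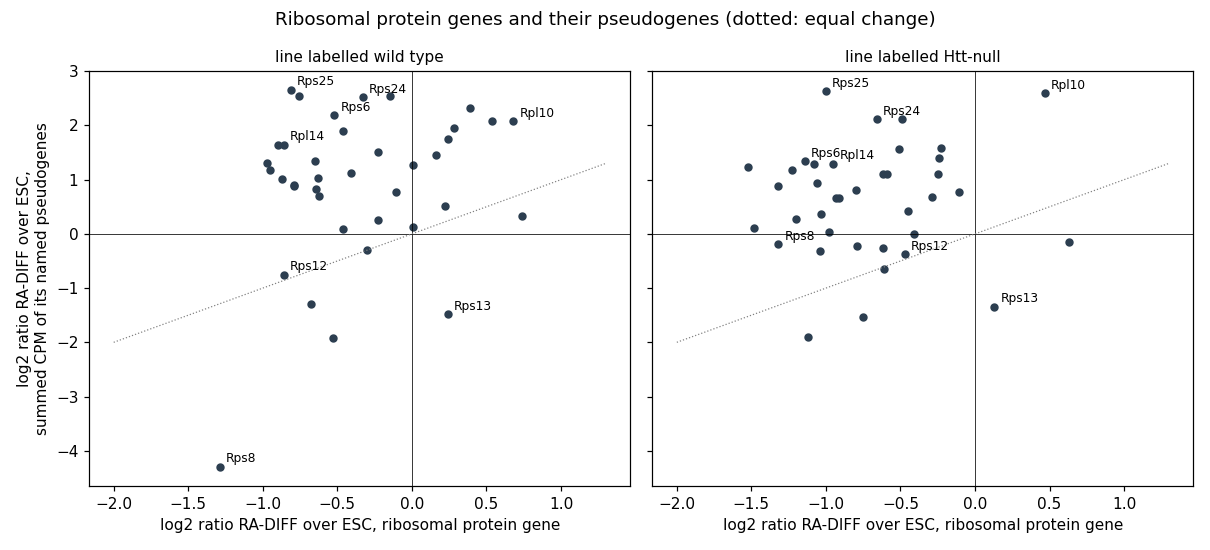
Log2 ratio of RA-DIFF over ESC for 38 members (horizontal) and for the summed CPM of their named pseudogenes (vertical) in the line labelled wild type and the line labelled Htt-null. Most points lie above the dotted line of equal change, the pseudogenes of Rps25 and Rps24 are near the top, and those of Rps13 and Rps12 lie below 0.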

How the data were processed

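Per the labels and the study's methods, the authors aligned 50 bp paired-end, strand-specific poly-A reads to GRCm38.p4 with TopHat2 2.0.14 guided by Gencode M6, counted them on genes with HTSeq 0.6.1 (intersection-nonempty, otherwise default options) and deposited raw counts, with no replicate pooled. The 4 small RNA libraries were not used here. CPM used TMM factors from all 4 libraries (edgeR 4.0.16, R 4.3.3) and ratios a prior count of 2, so folds of genes with few counts are understated. With 1 library per condition no spread can be estimated, so the main calls rest on no test. The calling step was tested on simulated data. Alternatives used library size, DESeq2 1.42.0 size factors, TMM without the members, other limits, the edgeR exact test at a preset dispersion of 0.01 or of 0.1, the study's choice, exchanged RA-DIFF labels and smaller member sets. The members and gene lists were chosen with earlier results of these data known. Genes were named as the 4 highest and 4 lowest members per comparison (100 counts or more in the library with more), the 5 highest and 5 lowest per kilobase, members on chromosomes 8 and 11, and the listed genes. A few members and listed genes enter the counts and medians but are not reported singly or plotted here. Coding length from GENCODE vM21 replaced exon length, because annotated transcript ends vary, and members under 300 coding bases were not ranked. Exact 50-base matches were searched on both strands of the GRCm38 chromosomes. Intervals for shares are Wilson intervals at 95% and cover counting error only.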

Additional observations from a re-analysis of the deposited data

Results flagged for a closer look

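Some members had ratios of opposite sign under the same contrast in the 2 stages or lines, each beyond 3 counting standard errors and at least 1 of them past 0.75. With 1 library per condition the difference was not tested. For the Htt genotype these were Rpl29 (1.04 in ESC and -0.37 in RA-DIFF), Rps23 (0.94 and -0.34), Rps2 (0.86 and -0.16) and Rps29 (0.75 and -0.21), and the RA-DIFF signs turn when those labels are exchanged. They are all 4 members called higher in Htt-null ESC. In RA-DIFF 80 of the 84 members were below 0, so the negative sign there is not particular to these 4. For RA-differentiation these were Rpl29 (1.21 in the line labelled WT and -0.20 in the line labelled Htt-null), Rpl27a (0.16 and -1.02) and Rps29 (0.16 and -0.80). With the RA-DIFF labels exchanged no member has opposite signs with 1 of them past 0.75, these 3 being at 0.84 and 0.17 (Rpl29), -0.59 and -0.27 (Rpl27a) and -0.05 and -0.59 (Rps29) in WT and Htt-null cells. The comparisons that involve WT ESC share that library.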

How the results depend on the processing

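No paired analysis was possible because each condition has 1 library. Of 121 values recomputed for medians, counts of calls and shares, 82 kept within the limits of change, 37 moved and 2 reversed. The reversals were the ESC genotype median without the members of which over 50% of windows lie elsewhere (-0.16, chosen after seeing the data) and the RA-DIFF genotype median with the RA-DIFF labels exchanged (0.20). In the same set of 14 members the other medians were -0.24 for the RA-DIFF genotype and -1.18 and -1.07 for RA in the lines labelled WT and Htt-null. With RA, 9 and 9 were called lower (64.3% of the 14, against 26.1% and 24.8% of all genes tested). In ESC or with RA in the line labelled WT, 0 were called higher. The 14 include diverged copies. For the 9 ordinary members among them the RA medians were -0.87 and -0.93, with 5 and 5 called lower (55.6%). With library size alone the 4 medians were 0.13, -0.25, -0.58 and -0.99, with 2 members called higher with RA in the line labelled WT. With DESeq2 size factors the medians for the ESC genotype and RA in the line labelled WT were 0.04 and -0.67. With exchanged labels the RA medians were -0.77 and -0.70 with 44 and 37 called lower, 3 members were called higher and 0 lower between RA-DIFF genotypes, and 1 higher with RA in the line labelled Htt-null. A limit of 1 left 1 member called higher and 0 lower in the ESC genotype comparison and 15 lower with RA in the line labelled WT. Requiring the exact test at dispersion 0.1 left 0 and 0 in the ESC genotype comparison, 0 higher and 11 lower with RA in the line labelled WT and 17 lower in the line labelled Htt-null. Without the 7 diverged copies the medians were 0.12 (ESC genotype), -0.52 and -0.80 (RA), and 0 members were called lower between genotypes at either stage. Without chromosomes 8 and 11 the RA median in the line labelled Htt-null was -0.82. Over protein-coding counts only, the shares were 3.53%, 3.84%, 2.34% and 1.97%. Of 348 ratios of single members under the 3 scalings, 341 kept their side of the limit, 3 fell under it, 4 passed it and none changed sign.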
